A study of Mus musculus with 10 samples.

Results

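Epithelial antimicrobial peptides and proteins were followed as 10 genes in oesophageal tissue of mice given 4-NQO, the carcinogen 4-nitroquinoline 1-oxide. They were taken by gene symbol from a table of 22740 protein-coding genes, in which all 10 were found: the beta-defensin genes Defb1, Defb3, Defb4 and Defb14, the cathelicidin gene Camp, the antiproteinase gene Slpi, the lipocalin gene Lcn2 and the peptidoglycan recognition protein genes Pglyrp1, Pglyrp3 and Pglyrp4. The Grhl3 KO group held 5 mice labelled as Grhl3 knockout, with tissue labelled as oesophageal tumour. The wild-type group held 5 mice labelled as wild type, with tissue labelled only as oesophageal, although the design text of the series speaks of tumours in both. All 10 mice were C57BL/6 and all received 4-NQO. The series title names conditional knockouts, and the columns of the Grhl3 KO libraries carry the label L2Cre. What L2Cre stands for, the age and sex of the mice and the time on 4-NQO are not stated in the sources used here. Genotype and tissue label differ between the same libraries and cannot be told apart.

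Stratified epithelium meets microbes directly and secretes small proteins that kill or restrain them. Beta-defensins are short cationic peptides with cysteine bridges that damage microbial membranes and attract leukocytes, and cathelicidin works in a similar way. SLPI inhibits neutrophil elastase and other serine proteases, lipocalin 2 withholds iron by binding bacterial siderophores, and peptidoglycan recognition proteins bind bacterial cell wall. Keratinocytes raise several of these genes on contact with microbes or with IL-1, IL-17, IL-22 or TNF. Camp, Lcn2 and Pglyrp1 are also made for the granules of neutrophils.

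The libraries held 15.3 to 32.9 M counts each (M, the SI prefix mega). Levels are given as CPM, counts per M of library size scaled by TMM factors. The tissue label was checked against 15 markers of stratified squamous epithelium, all of which passed the filter on low counts; Krt14, a basal keratin gene, averaged 17838 ± 1079 CPM in Grhl3 KO mice and 17185 ± 2914 CPM in wild-type mice (SD, n = 5 each). The transcript of Grhl3 stood at 222 ± 66.8 CPM in the Grhl3 KO libraries, against 207 ± 112 CPM in wild-type mice (SD, n = 5 each), so the count did not set the labels apart, and "Grhl3 KO" means the libraries so labelled. Wild-type libraries 1528 and 1555 held almost no counts of the Y-linked gene Eif2s3y (0 and 0.0539 CPM), and wild-type library 1561 stood at 24.9 CPM; the Grhl3 KO libraries stood between 71.0 and 75.6 CPM, and wild-type libraries 1028 and 1048 at 69.2 and 68.4 CPM. The Y-linked level thus went in part with the group labels and cannot be fully told apart from them. In bulk tissue, fewer cells of a type and less RNA per cell cannot be told apart.

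The 4 beta-defensin genes lie on chromosome 8 of GRCm38. Defb14 (chr8:19194357-19195212), Defb4 (chr8:19198706-19201545) and Defb3 (chr8:19293360-19295291) form a cluster with midpoints 5.3 and 94.2 kb apart, and Defb1 (chr8:21776599-21795185) lies 2.49 Mb further on. Slpi (chr2:164354070-164389095) and Lcn2 (chr2:32384633-32388252) are far apart on chromosome 2. Pglyrp4 (chr3:90726906-90741517) and Pglyrp3 (chr3:92014583-92031582) lie 1.29 Mb apart on chromosome 3, Pglyrp1 is at chr7:18871331-18890459 and Camp at chr9:109847379-109849617. No stretch of 75 bases or more in the longest annotated transcript of any member was at least 95% identical to a transcript of another gene, and no other protein-coding gene overlapped their exons on the same strand.

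The RefSeq promoter table (GRCm38.p6) held windows for 5 members, Defb3, Camp, Slpi, Lcn2 and Pglyrp1. The 250 bases before the start are shown for Lcn2 and Pglyrp1, the pair of members with the largest positive differences, and for Slpi and Defb3, the most abundant member and the defensin gene with the widest wild-type spread. They are printed 5′ to 3′ on the gene's strand: Lcn2 from chr2:32387740-32387989 (minus strand), Pglyrp1 from chr7:18884440-18884689 (plus strand), Slpi from chr2:164356508-164356757 (minus strand) and Defb3 from chr8:19293111-19293360 (plus strand). The start is the one RefSeq gives. For Lcn2, Slpi and Pglyrp1 it lies inside the GENCODE gene span given above, which begins further upstream, so these windows fall within that span. Capitals mark a match to any of the motifs searched.
Lcn2: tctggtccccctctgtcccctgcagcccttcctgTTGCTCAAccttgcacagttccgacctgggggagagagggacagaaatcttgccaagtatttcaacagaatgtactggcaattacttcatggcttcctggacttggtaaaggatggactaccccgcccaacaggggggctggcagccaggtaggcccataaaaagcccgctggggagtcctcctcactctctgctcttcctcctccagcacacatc
Pglyrp1: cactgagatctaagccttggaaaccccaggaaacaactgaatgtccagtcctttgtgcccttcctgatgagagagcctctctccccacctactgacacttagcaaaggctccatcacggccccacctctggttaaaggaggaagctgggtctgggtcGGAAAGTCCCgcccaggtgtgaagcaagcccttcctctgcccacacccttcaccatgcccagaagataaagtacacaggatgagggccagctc
Slpi: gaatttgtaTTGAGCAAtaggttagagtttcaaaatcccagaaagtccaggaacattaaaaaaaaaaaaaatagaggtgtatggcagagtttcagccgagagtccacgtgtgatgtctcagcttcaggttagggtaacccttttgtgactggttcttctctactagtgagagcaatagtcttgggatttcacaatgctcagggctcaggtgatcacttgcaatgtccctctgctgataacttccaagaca
Defb3: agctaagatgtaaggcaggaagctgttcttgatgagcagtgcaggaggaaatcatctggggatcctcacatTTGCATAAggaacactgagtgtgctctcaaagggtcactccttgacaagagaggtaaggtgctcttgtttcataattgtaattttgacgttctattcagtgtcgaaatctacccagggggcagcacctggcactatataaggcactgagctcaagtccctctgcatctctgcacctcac
The motifs, searched on both strands, were NF-kB (by its usual degenerate consensus), AP-1 (TGANTCA), C/EBP (TTGCNNAA), STAT (TTCNNNGAA), grainyhead-like (AACCGGTT) and the TATA box (TATAAA). Lcn2 held TTGCTCAA from -216 to -209, Slpi TTGAGCAA (letters as printed, the motif being on the opposite strand) from -241 to -234 and Defb3 TTGCATAA from -179 to -172, all matches to the C/EBP motif, counted from -1 as the last base before the start. Pglyrp1 held 1 NF-kB match, GGAAAGTCCC as printed (opposite strand again), from -93 to -84. Over all 32851 windows of this length in the table, 9.56% held the C/EBP motif and 7.25% the NF-kB motif, and AP-1, STAT, grainyhead-like and TATA box letters stood in 6.75%, 7.02%, 0.116% and 12.4%. The window of Camp held none of the 6 motifs. A match describes letters only.

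Between Grhl3 KO and wild type, 0 of the 9 members that could be tested were called (quasi-likelihood test of edgeR, Benjamini-Hochberg adjusted p under 0.05), where 0.0801% of all 13731 genes tested were. By direction the share of all genes called was 0.0291% higher and 0.0510% lower. Camp did not pass the filter on low counts. Before adjustment, 4 of the 9 lay under 0.05, namely Lcn2, Pglyrp1, Pglyrp3 and Defb4, where 7.16% of all genes did; the members were chosen with earlier results of these data known, so this share is a description. DESeq2 also called 0 of the 9, where it called 0.867% of all genes. Of the 9 members 5 had a positive and 4 a negative log2 fold change, with a median of 0.31 beside −0.0011 over all genes tested. For none of the 9 did the groups separate fully, which they did for 1.35% of all genes.

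**Figure D1:**
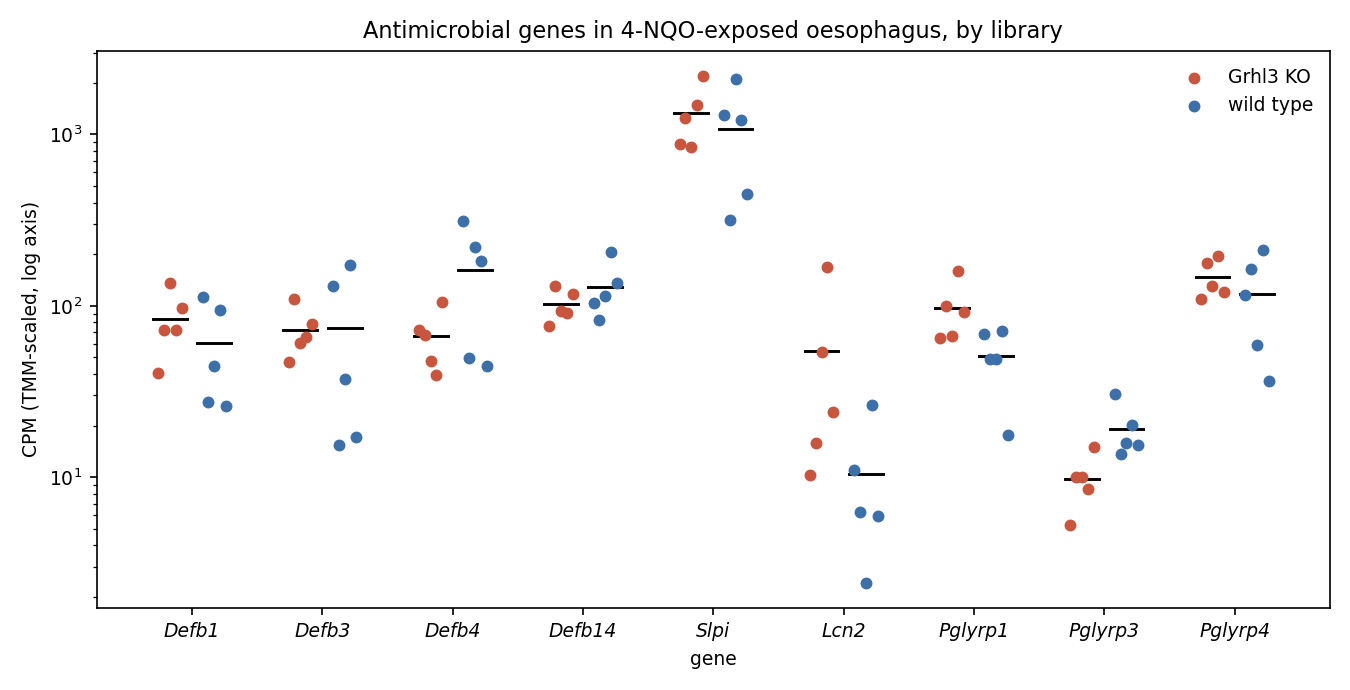
CPM of 9 members in each library on a log axis, Grhl3 KO in red and wild type in blue; points are mice and bars are group means (n = 5 each). Slpi stands highest, Lcn2 spans 10.3 to 169 CPM in Grhl3 KO mice and 2.43 to 26.4 CPM in wild type, and the groups overlap for every gene shown.

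Defb4, the mouse counterpart of the inducible human beta-defensin of inflamed epithelium, had 72.5, 67.8, 47.6, 39.5 and 106 CPM in Grhl3 KO libraries 1026, 1027, 1035, 1036 and 1043. In wild type it had 312, 49.7, 221, 182 and 44.3 CPM in libraries 1028, 1048, 1528, 1555 and 1561. The wild-type mice fell into high and low values: 3 stood above every Grhl3 KO library, while libraries 1048 and 1561 lay inside the Grhl3 KO range. The means were 66.7 ± 25.9 CPM in Grhl3 KO mice and 162 ± 115 CPM in wild-type mice (SD, n = 5 each), a log2 fold change of −1.28 (SE 0.52, 95% limits −2.42 to −0.14), or 2.43-fold lower, which missed the threshold (edgeR adjusted p = 0.651). Within sample numbers 1026 to 1048, which hold all 5 Grhl3 KO and 2 wild-type libraries, it was −1.44. With the mean log2 CPM of the 15 squamous markers as a covariate the log2 fold change was −0.25 (edgeR adjusted p = 0.852). This covariate weighs each marker alike. Set against its mean over the libraries, it ran from −0.22 to 0.01 in Grhl3 KO and from −0.39 to 0.40 in wild type. Of the markers, 11 were lower in Grhl3 KO, so the fit cannot set genotype and squamous level fully apart.

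Defb3, another inducible beta-defensin gene, had similar group means with wide limits. It had 47.0, 109, 60.95, 65.6 and 78.0 CPM in Grhl3 KO libraries 1026, 1027, 1035, 1036 and 1043, against 130, 15.4, 37.3, 173 and 17.1 CPM in wild-type libraries 1028, 1048, 1528, 1555 and 1561. The Grhl3 KO values all lay inside the wild-type range. The log2 fold change was −0.05 (SE 0.62, 95% limits −1.42 to 1.33, edgeR adjusted p = 0.992). The direction was not settled, since it changed sign in 10 of 24 alternatives: the log2 fold change was 0.53 without wild-type library 1555, 0.58 with limma voom, 0.69 with quality weights and 1.17 (SE 0.45, edgeR adjusted p = 0.448) with the squamous covariate. The highest value was 2.32 times the lowest in Grhl3 KO and 11.3 times the lowest in wild type, a difference in spread that was not tested.

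Defb14, the mouse counterpart of a broadly active human beta-defensin, was the steadiest of the defensin genes. It averaged 102 ± 21.9 CPM in Grhl3 KO mice and 128 ± 47.2 CPM in wild-type mice (SD, n = 5 each), from 76.6 to 131 CPM in Grhl3 KO mice and from 82.1 to 205 CPM in wild type. Its log2 fold change was −0.33 (SE 0.23, edgeR adjusted p = 0.824) and turned to 0.13 within sample numbers 1026 to 1048. Defb1, the defensin gene known for constitutive expression in epithelia, averaged 83.6 ± 35.5 CPM in Grhl3 KO mice and 60.9 ± 39.9 CPM in wild type, with a log2 fold change of 0.46 (SE 0.45, edgeR adjusted p = 0.897). Grhl3 KO library 1035 was highest at 136 CPM and wild-type library 1561 lowest at 25.9 CPM, and the ranges overlapped. With the squamous covariate the Defb1 log2 fold change was 1.15 (SE 0.40, edgeR adjusted p = 0.400).

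Slpi was the most abundant member. It had 873, 1250.2, 846, 1489 and 2190.5 CPM in Grhl3 KO libraries 1026, 1027, 1035, 1036 and 1043, against 1290.4, 316, 2102, 1211 and 448 CPM in wild-type libraries 1028, 1048, 1528, 1555 and 1561. Wild-type libraries 1048 and 1561 were the lowest of the 10, as they were for Defb3 and Defb1. The log2 fold change was 0.31 (SE 0.48, 95% limits −0.74 to 1.36, edgeR adjusted p = 0.947). It was 0.06 without Grhl3 KO library 1043, 0.73 within sample numbers 1026 to 1048 and 0.96 without wild-type libraries 1528 and 1555. With the mean level of the squamous markers as a covariate it was 0.99 (SE 0.38, edgeR adjusted p = 0.446).

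Lcn2 had the largest difference among the members and the least even values. It had 10.3, 15.8, 53.6, 169 and 23.9 CPM in Grhl3 KO libraries 1026, 1027, 1035, 1036 and 1043, against 10.99, 6.27, 2.43, 26.4 and 5.93 CPM in wild-type libraries 1028, 1048, 1528, 1555 and 1561. Grhl3 KO libraries 1036 and 1035 stood above every wild-type library, and the other 3 lay between wild-type values. The means were 54.6 ± 66.3 CPM in Grhl3 KO mice and 10.4 ± 9.45 CPM in wild-type mice (SD, n = 5 each), 5.27-fold higher at a log2 fold change of 2.40 (SE 0.83, 95% limits 0.56 to 4.23, edgeR adjusted p = 0.541; 0.208 in DESeq2). Without Grhl3 KO library 1036 the log2 fold change was 1.32 (edgeR adjusted p = 0.888), and without wild-type library 1555 it was 3.08. Within sample numbers 1026 to 1048 it was 2.67.

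**Figure D2:**
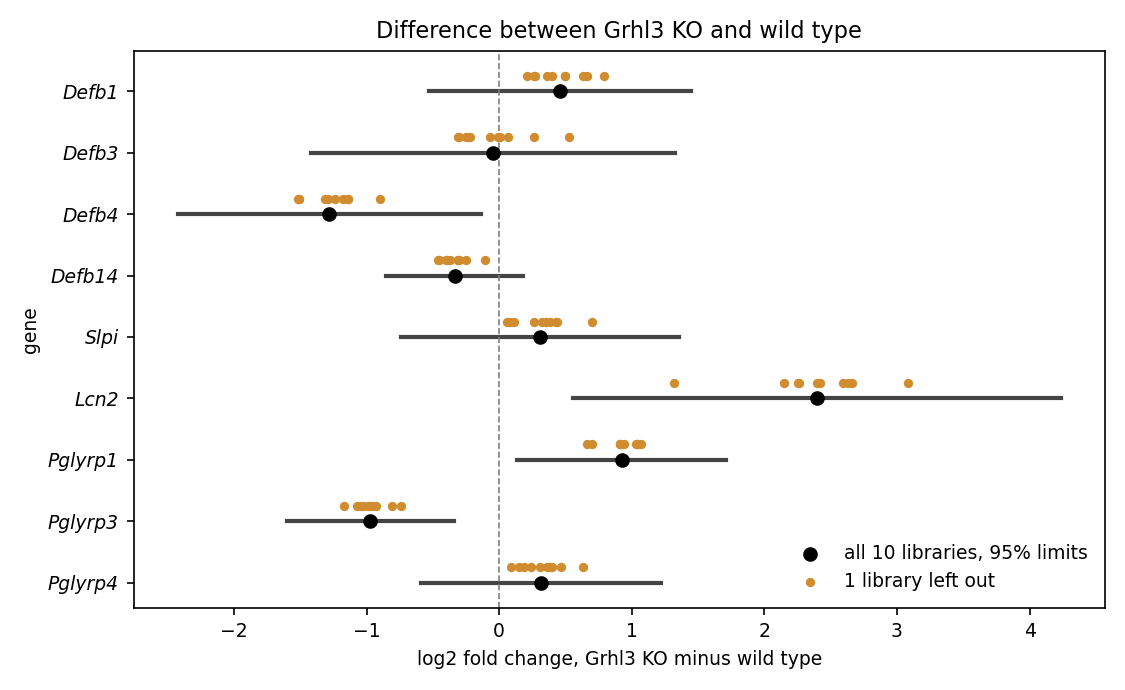
Log2 fold change of Grhl3 KO minus wild type for 9 members (black, with 95% limits from edgeR's quasi-likelihood test) and the values with 1 library left out (orange). The unadjusted limits of Lcn2, Pglyrp1, Pglyrp3 and Defb4 lie off 0, though none of these genes was called. The Lcn2 values run from 1.32 to 3.08.

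Neutrophils also make lipocalin 2, so their markers were read in the libraries highest and lowest for Lcn2. In Grhl3 KO library 1036, the highest for Lcn2, the granulocyte colony-stimulating factor receptor gene Csf3r stood at 34.1 CPM, the lactoferrin gene Ltf at 561 CPM and the neutrophil gene Retnlg at 5.59 CPM, each the highest of the 10 libraries. It was highest for 5 of the 10 tested neutrophil markers, the others being Stfa2l1 and Trem1. For Cxcr2 it stood at 16.7 CPM, below 18.2 CPM in wild-type library 1555, for Mmp9 at 37.4 CPM, the fifth of the 10, and for Il1r2 at 23.4 CPM, above 1 library only. Wild-type library 1528, the lowest for Lcn2, had the highest Mmp9 (728 CPM), the next highest Csf3r (17.8 CPM) and a Retnlg level of 3.11 CPM. The granule genes Ngp, Mpo, Elane, Prtn3 and Ctsg and the surface marker gene Ly6g were near 0. Together they held 5 to 13 counts in each Grhl3 KO library and 2 to 15 counts in each wild-type library. Other markers of the list were not near 0: Cxcr2 averaged 10.8 CPM in Grhl3 KO mice and 10.6 CPM in wild type. Whether neutrophils were few was not tested. Of 17 neutrophil markers 10 could be tested and 0 were called, with a median log2 fold change of −0.28; the markers summed to 7823 to 11834 CPM in Grhl3 KO mice and 3370.3 to 23436 CPM in wild type, of which S100a8 and S100a9, which keratinocytes also make, took 78.9% to 99.4%. With the mean level of the tested neutrophil markers that are no members as a covariate, the Lcn2 log2 fold change was 2.28 (edgeR adjusted p = 0.350). The part of neutrophils in the Lcn2 values was not tested further.

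Pglyrp1, a short secreted peptidoglycan recognition protein of neutrophils and epithelia, had 65.0, 99.6, 66.4, 160 and 92.3 CPM in Grhl3 KO libraries 1026, 1027, 1035, 1036 and 1043. It had 68.3, 48.7, 49.0, 71.4 and 17.5 CPM in wild-type libraries 1028, 1048, 1528, 1555 and 1561. Grhl3 KO libraries 1026 and 1035 lay just below the highest wild-type values and the other 3 above them. The means were 96.6 ± 38.6 CPM in Grhl3 KO mice and 51.0 ± 21.5 CPM in wild-type mice (SD, n = 5 each), a log2 fold change of 0.92 (SE 0.36, 95% limits 0.13 to 1.71), or 1.90-fold higher, which missed the threshold (edgeR adjusted p = 0.622). It was 0.66 without Grhl3 KO library 1036 and 0.73 within sample numbers 1026 to 1048. With the mean level of the squamous markers as a covariate it was 1.49 (SE 0.21) and passed (edgeR adjusted p = 0.0414), in a fit that called 0.168% of all genes; no other member passed there. The limit given for this covariate at Defb4 holds here too. Over all alternatives the edgeR, DESeq2 or limma adjusted p of Pglyrp1 ran from 0.0414 to 0.958.

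Pglyrp3 and Pglyrp4, both on chromosome 3, are known for expression in stratified epithelia. Pglyrp3 had 5.22, 10.1, 9.999, 8.51 and 14.99 CPM in Grhl3 KO libraries 1026, 1027, 1035, 1036 and 1043, against 30.6, 13.7, 15.8, 20.1 and 15.4 CPM in wild-type libraries 1028, 1048, 1528, 1555 and 1561. It was the member nearest to a full separation: only Grhl3 KO library 1043 lay above a wild-type library, 1048. The means were 9.76 ± 3.52 CPM in Grhl3 KO mice and 19.1 ± 6.81 CPM in wild-type mice (SD, n = 5 each), a log2 fold change of −0.97 (SE 0.29, 95% limits −1.60 to −0.34), or 1.96-fold lower, with the smallest unadjusted p of the members (0.00603; edgeR adjusted p = 0.428, and 0.0839 in DESeq2). It ran from −1.17 to −0.74 with 1 library left out and was −1.18 within sample numbers 1026 to 1048. Pglyrp4 averaged 146 ± 37.2 CPM in Grhl3 KO mice and 118 ± 72.9 CPM in wild type, with a log2 fold change of 0.32 (SE 0.41, edgeR adjusted p = 0.934). Pglyrp2, the member of the family known for an enzyme that cuts peptidoglycan, is not among the 10 genes; it averaged 3.37 ± 4.22 CPM in Grhl3 KO mice and 4.52 ± 3.27 CPM in wild type (log2 fold change −0.41, edgeR adjusted p = 0.957). Whether the genes of this family differ from each other was not tested.

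Camp, whose product is processed into the cathelicidin peptide CRAMP, was at the edge of detection. Its reads numbered 4 among 123.9 M counts of the 5 Grhl3 KO libraries (1 in library 1027 and 3 in library 1043) and 1 among 99.3 M counts of the wild-type libraries (in library 1555). The exact 95% Poisson limits are 1.09 to 10.2 counts for Grhl3 KO and 0.0253 to 5.57 counts for wild type and cover counting error only. No fold change is given at this depth, since no library holds more than 3 counts.

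Set per length, as CPM per kb of annotated exon over all 10 libraries, the order was Slpi (1018), Defb14 (564), Defb3 (267), Defb4 (251), Defb1 (82.8), Pglyrp4 (55.7), Pglyrp1 (40.2), Pglyrp3 (13.04), Lcn2 (12.4) and Camp (0.0350). The annotated models of Defb14 and Defb3 are short, at 204 and 275 bases, so their places depend on the model used. Slpi exceeded Defb14 in 5 of 5 Grhl3 KO and 3 of 5 wild-type libraries, and Defb14 exceeded Defb3 in 10 of 10. Defb3 exceeded Defb4 in 5 of 5 Grhl3 KO libraries and in 1 of 5 wild-type libraries, a contrast between groups that was not tested. It also depends on the model lengths, 275 and 454 bases. In plain CPM, Defb3 was below Defb4 in Grhl3 KO libraries 1026 (47.0 and 72.5 CPM) and 1043 (78.0 and 106 CPM). It was above Defb4 in libraries 1027, 1035 and 1036, and below it in every wild-type library. Levels of Defb3 and Defb4 averaged 262 ± 85.5 and 147 ± 56.9 CPM per kb in Grhl3 KO and 271 ± 263 and 356 ± 253 CPM per kb in wild-type mice (SD, n = 5 each). Pglyrp3 exceeded Lcn2 in 3 of 5 Grhl3 KO and 5 of 5 wild-type libraries. The means had the opposite order in Grhl3 KO, with Lcn2 at 20.8 and Pglyrp3 at 8.82 CPM per kb there, against 3.97 and 17.3 CPM per kb in wild type. By mean level per kb, Slpi stood above 99.6% and Lcn2 above 70.9% of the tested genes with a length.

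The members varied more between mice than most genes did. Over the 9 tested members the SD of log2 CPM had a median of 0.544 in Grhl3 KO mice and 1.05 in wild-type mice, beside 0.216 and 0.279 over all genes tested. The SD was larger in wild type for 7 of the 9 members, where 67.0% of all genes showed the same. The exceptions were Lcn2, at 1.59 in Grhl3 KO and 1.25 in wild type, and Pglyrp3, at 0.544 and 0.458. The wild-type spread was widest for Defb3 (SD 1.62, against 0.451 in Grhl3 KO). Wild-type libraries 1048 and 1561 stood at −1.88 and −1.73 from the Defb3 mean on the log2 scale, −1.18 and −1.27 from that of Defb1, and −1.71 and −1.21 from that of Slpi. Wild-type library 1048 was nonetheless above the mean for Pglyrp4, at 0.48, and library 1561 was not, at −1.69.

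**Figure D3:**
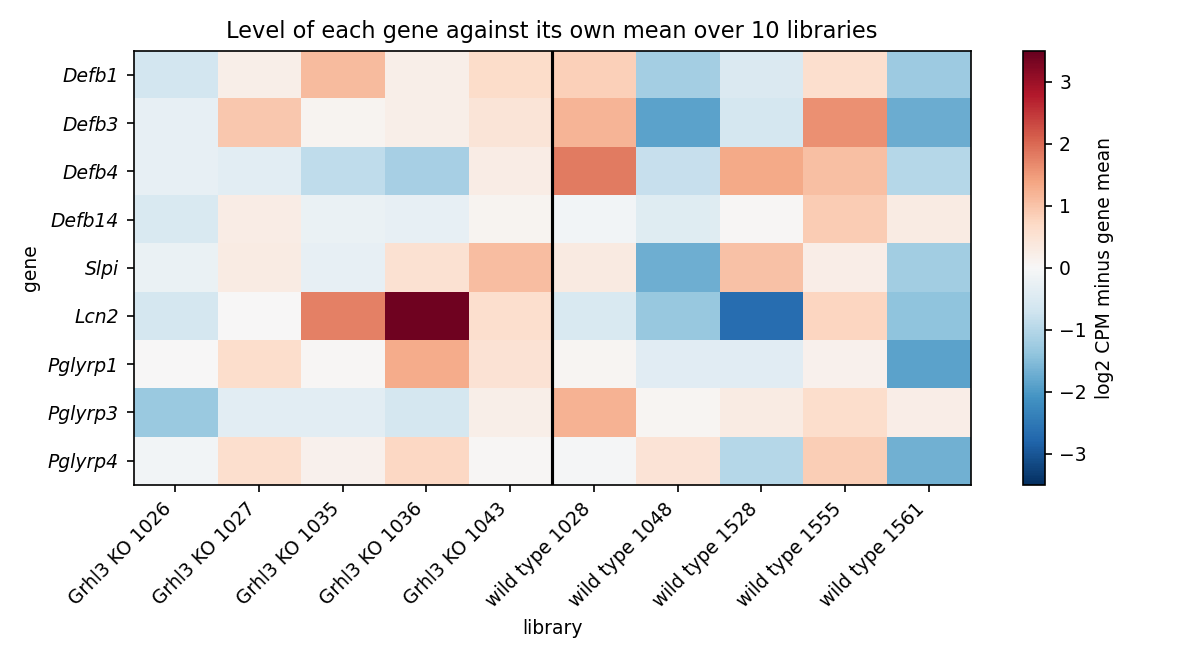
Log2 CPM of 9 members in each library minus the gene's own mean over 10 libraries, with Grhl3 KO left of the line and wild type right of it. Wild-type libraries 1048 and 1561 are low for Defb1, Defb3 and Slpi, and Lcn2 reaches 3.42 above its mean in Grhl3 KO library 1036.

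Across the 10 libraries, Defb3 was high where the summed CPM of the squamous markers was high. Abundant keratin genes weigh most in that sum: Krt14 averaged 17838 CPM in Grhl3 KO mice, against 4.31 CPM for Ivl. Ivl itself had 1.93, 10.8, 30.7, 8.41 and 29.4 CPM in wild-type libraries 1028, 1048, 1528, 1555 and 1561. In Grhl3 KO it ran from 1.85 to 6.03 CPM. Wild-type libraries 1048, 1528 and 1561, the lowest for Defb3, were thus the highest for Ivl. Of 18 relations computed, between each tested member and 2 marker sums, 3 had a Benjamini-Hochberg adjusted p under 0.05 for Pearson's r. All 3 share the adjusted p of 0.0497, which rests on random resampling. Another draw of permutations could move all 3 past 0.05. Defb3 and the sum of the 15 squamous markers gave r = 0.76 (permutation p = 0.00829, adjusted 0.0497) and rho = 0.87 (permutation p = 0.00206, adjusted 0.0203). The r was 0.75 without wild-type libraries 1028 and 1561, the farthest from the median sum (exact permutation p = 0.0254), and 0.68 over the 7 libraries numbered 1026 to 1048 (exact permutation p = 0.128). Defb4 and the same sum gave r = 0.74 (permutation p = 0.00728, adjusted 0.0497) and rho = 0.67 (permutation p = 0.0379, adjusted 0.132). Without the same 2 libraries, the highest and lowest of the sum, the Defb4 relation was weaker, at r = 0.48 (exact permutation p = 0.226). Within these numbers, which keep library 1028 but not 1561, it was 0.93 (exact permutation p = 0.0133). Defb3 and the neutrophil list sum, which is mostly S100a8 and S100a9, gave r = 0.84 (permutation p = 0.00351, adjusted 0.0497), rho = 0.87 (permutation p = 0.00226, adjusted 0.0203), r = 0.74 without the 2 farthest libraries (exact permutation p = 0.0441) and r = 0.70 within these numbers (exact permutation p = 0.117). Both sums were highest in wild-type library 1028 and lowest in wild-type library 1561, so the 2 Defb3 relations are not independent of each other. With each library set against the mean of its own genotype, r was 0.80 for Defb3 and 0.81 for Defb4 with the squamous sum, and 0.85 for Defb3 with the neutrophil list sum. These are given as descriptions, with no test. Lcn2 had r = 0.12 with the squamous sum (permutation p = 0.732, adjusted 0.732) and rho = 0.33 (permutation p = 0.350, adjusted 0.421).

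**Figure D4:**
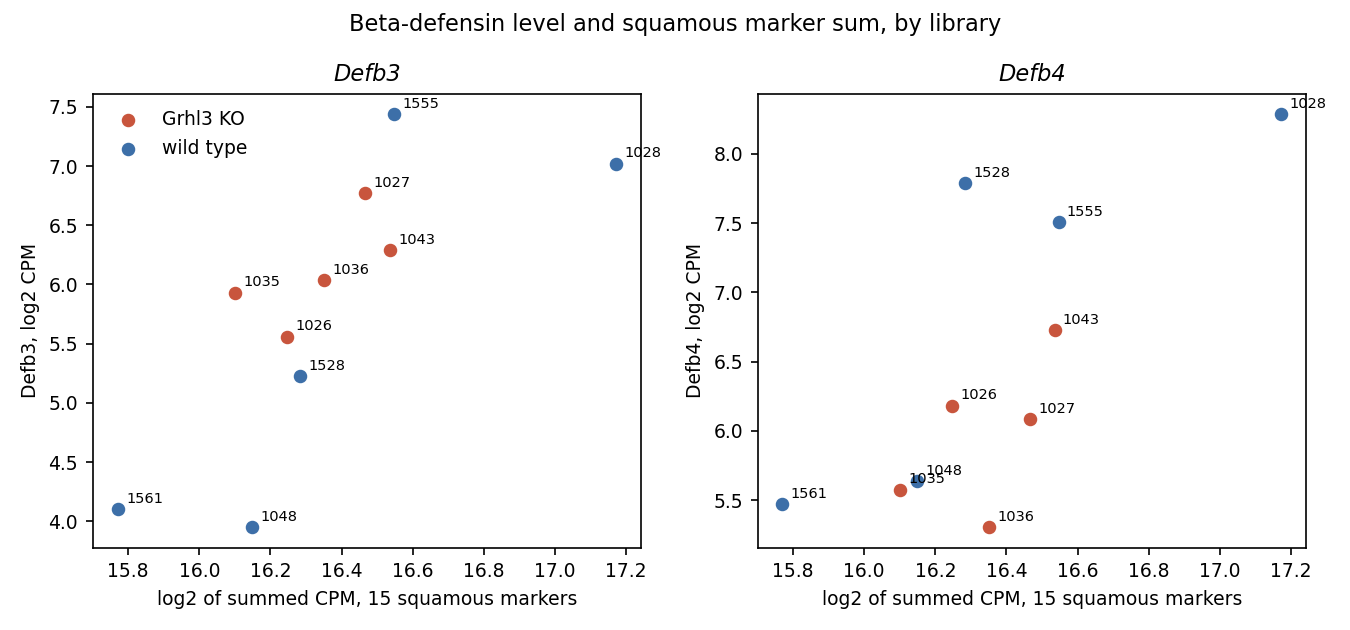
Log2 CPM of Defb3 (left) and Defb4 (right) against the log2 of the summed CPM of 15 squamous markers, with 1 point per library (Grhl3 KO red, wild type blue). Both are higher where the sum is higher over the 10 libraries (r = 0.76 and r = 0.74), and wild-type library 1028 lies at the far right in both.

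Among the members themselves, 36 pairs were compared and 0 passed the adjustment. The highest values were Defb1 with Defb3 (r = 0.85, permutation p = 0.00215, adjusted 0.0774; rho = 0.73, permutation p = 0.0206, adjusted 0.186) and Pglyrp1 with Pglyrp4 (r = 0.81, permutation p = 0.00552, adjusted 0.0994; rho = 0.68, permutation p = 0.0351, adjusted 0.228). Without the 2 farthest libraries these were r = 0.60 and r = 0.44, and within sample numbers 1026 to 1048 r = 0.79 and r = 0.52. Lcn2 with Pglyrp1 gave r = 0.70 (permutation p = 0.0290, adjusted 0.210) and rho = 0.79 (permutation p = 0.00874, adjusted 0.186), with r = 0.59 without the 2 farthest libraries and r = 0.79 within those numbers. Defb4 and Defb14, whose genes lie 5.3 kb apart, gave r = 0.38 (permutation p = 0.286, adjusted 0.515) and rho = 0.21 (permutation p = 0.562, adjusted 0.788). Without the 2 farthest libraries that pair had r = 0.66, and within sample numbers 1026 to 1048 r = 0.34.

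The genes whose log2 CPM was most like a member's over the 10 libraries were picked from 12583 genes, by the highest Pearson r, so high values are a matter of the choice. Slpi was most like Prss8, encoding the membrane protease prostasin (r = 0.975), Klk14, a kallikrein peptidase gene (r = 0.959), and Dock6 (r = 0.958). Pglyrp4 was most like Dsg3, encoding a desmosomal cadherin (r = 0.980), Slk (r = 0.975) and the tight junction scaffold gene Tjp3 (r = 0.960). Defb4 was most like Cln8 (r = 0.978), Aox4 (r = 0.961) and Psapl1 (r = 0.960), and Defb3 like Zbtb7b (r = 0.959), Sbds (r = 0.946) and Zfp710 (r = 0.943). Pglyrp1 was most like Uox (r = 0.955), Prnp (r = 0.943) and Dhrs9 (r = 0.931), and Pglyrp3 like Sh3bp5 (r = 0.941), the cornified envelope gene Sprr1b (r = 0.917) and Pdcd2 (r = 0.911). Defb1 was most like Zdhhc14 (r = 0.947), Vapa (r = 0.928) and Cnksr3 (r = 0.925), Lcn2 like Lmbrd2 (r = 0.918), Prrg4 (r = 0.898) and Morc3 (r = 0.890), and Defb14 like Hmox2 (r = 0.843), Plekha5 (r = 0.828) and Fabp4 (r = 0.825).

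Other genes of antimicrobial defence were read from 5 lists with 95 distinct tested genes. Of these 0 were called over all genes in edgeR (background 0.0801%), 10 (10.5%) lay under 0.05 before adjustment, where 7.16% of all genes did, and 55 were higher and 40 lower with a median log2 fold change of 0.05. DESeq2 called 1 of them, Duox2, which encodes a dual oxidase that makes hydrogen peroxide at epithelial surfaces, in a test that called 0.867% of all genes. Duox2 had 12.4, 14.1, 9.71, 28.6 and 7.16 CPM in Grhl3 KO libraries 1026, 1027, 1035, 1036 and 1043, against 3.40, 7.27, 2.16, 6.25 and 1.04 CPM in wild-type libraries 1028, 1048, 1528, 1555 and 1561. Only Grhl3 KO library 1043 lay below a wild-type library, 1048. The log2 fold change was 1.84 (SE 0.52, edgeR adjusted p = 0.428; 0.0327 in DESeq2).

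Among the inducing ligands, 7 of 17 tested were higher and 10 lower, with a median of −0.03 and 1 unadjusted p under 0.05. That gene was Il17c, encoding the IL-17 family cytokine that epithelial cells make themselves. It had 5.72, 8.71, 2.40, 3.51 and 9.55 CPM in Grhl3 KO libraries 1026, 1027, 1035, 1036 and 1043, against 3.87, 0.369, 0.686, 2.91 and 0.235 CPM in wild-type libraries 1028, 1048, 1528, 1555 and 1561, and the groups overlapped (log2 fold change 1.88, SE 0.72, edgeR adjusted p = 0.621). Il17f, a T cell cytokine gene, averaged 2.71 ± 1.42 CPM in Grhl3 KO mice and 8.03 ± 10.6 CPM in wild type (log2 fold change −1.56, edgeR adjusted p = 0.728), with 26.7 CPM in wild-type library 1555. Tnf averaged 8.20 CPM in Grhl3 KO mice and 11.3 CPM in wild type (log2 fold change −0.46, edgeR adjusted p = 0.795). Il1f6 and Il1f9, which encode IL-36 cytokines of keratinocytes, were the most abundant by level per kb. Il1f6 averaged 223 ± 108 CPM in Grhl3 KO mice and 194 ± 110 CPM in wild type. Il1f9 averaged 223 ± 66.4 CPM in Grhl3 KO mice and 228 ± 120 CPM in wild type.

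Receptors and sensors had 12 of 21 tested genes higher and 9 lower (median 0.02), with Il17rc, a subunit of the IL-17A receptor, at 0.32 and Il17re, the receptor subunit for IL-17C, at −0.38 on the log2 scale (edgeR adjusted p = 0.688 and 0.753). The TNF receptor gene Tnfrsf1a had a log2 fold change of 0.16 and Nod1, a sensor of peptidoglycan fragments, one of −0.33. Signalling and transcription factor genes had 16 of 20 higher and 4 lower (median 0.08), where 6829 of all genes tested were higher and 6902 lower. Rela, encoding the NF-kB subunit p65, was the gene of this list whose groups did not overlap, as was so for 1.35% of all genes tested. It ran from 87.2 to 96.0 CPM in Grhl3 KO mice and from 67.7 to 82.9 CPM in wild type (log2 fold change 0.29, SE 0.08, edgeR adjusted p = 0.378). Ripk2, a kinase downstream of NOD sensors, averaged 13.5 CPM in Grhl3 KO mice and 17.3 CPM in wild type, −0.36 on the log2 scale (edgeR adjusted p = 0.682), and Traf6, an adaptor in IL-1, IL-17 and Toll-like receptor signalling, had a log2 fold change of −0.26. The abundant transcription factor genes Hif1a and Klf4 had log2 fold changes of 0.34 and 0.17. Genes that process or receive the peptides had 6 of 12 higher and 6 lower (median −0.02). The protease genes Klk7 and Klk5, whose human products cut cathelicidin in skin, had log2 fold changes of 1.36 and −1.25 (edgeR adjusted p = 0.621 and 0.651). Klk7 stood at 271 ± 102 CPM in Grhl3 KO mice and 106 ± 81.0 CPM in wild type and Klk5 at 0.957 ± 0.325 CPM in Grhl3 KO mice and 2.28 ± 1.52 CPM in wild-type mice (SD, n = 5 each). The lipocalin 2 receptor gene Slc22a17 averaged 5.27 ± 1.52 CPM in Grhl3 KO mice and 6.65 ± 1.69 CPM in wild type. P2rx7, an ATP-gated channel gene, averaged 8.93 CPM in Grhl3 KO mice and 13.7 CPM in wild type (log2 fold change −0.62, edgeR adjusted p = 0.689). Klk8 and Anxa2, the most abundant of that list per length, had log2 fold changes of 0.37 and 0.11.

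Other antimicrobial protein genes had 14 of 25 tested higher and 11 lower (median 0.03). The most abundant were S100a8 and S100a9, whose products form calprotectin, a chelator of zinc and manganese. S100a8 averaged 4001 ± 709 CPM in Grhl3 KO mice and 4818 ± 4058 CPM in wild type, and S100a9 5317 ± 884 CPM in Grhl3 KO mice and 6837 ± 6039 CPM in wild-type mice (SD, n = 5 each). Their spread between mice was thus far wider in wild type, as it was for Defb3, a difference that was not tested. The ribonuclease gene Ang averaged 14.4 ± 1.83 CPM in Grhl3 KO mice and 11.2 ± 1.71 CPM in wild type (log2 fold change 0.36, edgeR adjusted p = 0.621). Pla2g2f, a secreted phospholipase gene of suprabasal epidermis, averaged 2.19 CPM in Grhl3 KO mice and 5.69 CPM in wild type (log2 fold change −1.40, edgeR adjusted p = 0.681).

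**Figure D5:**
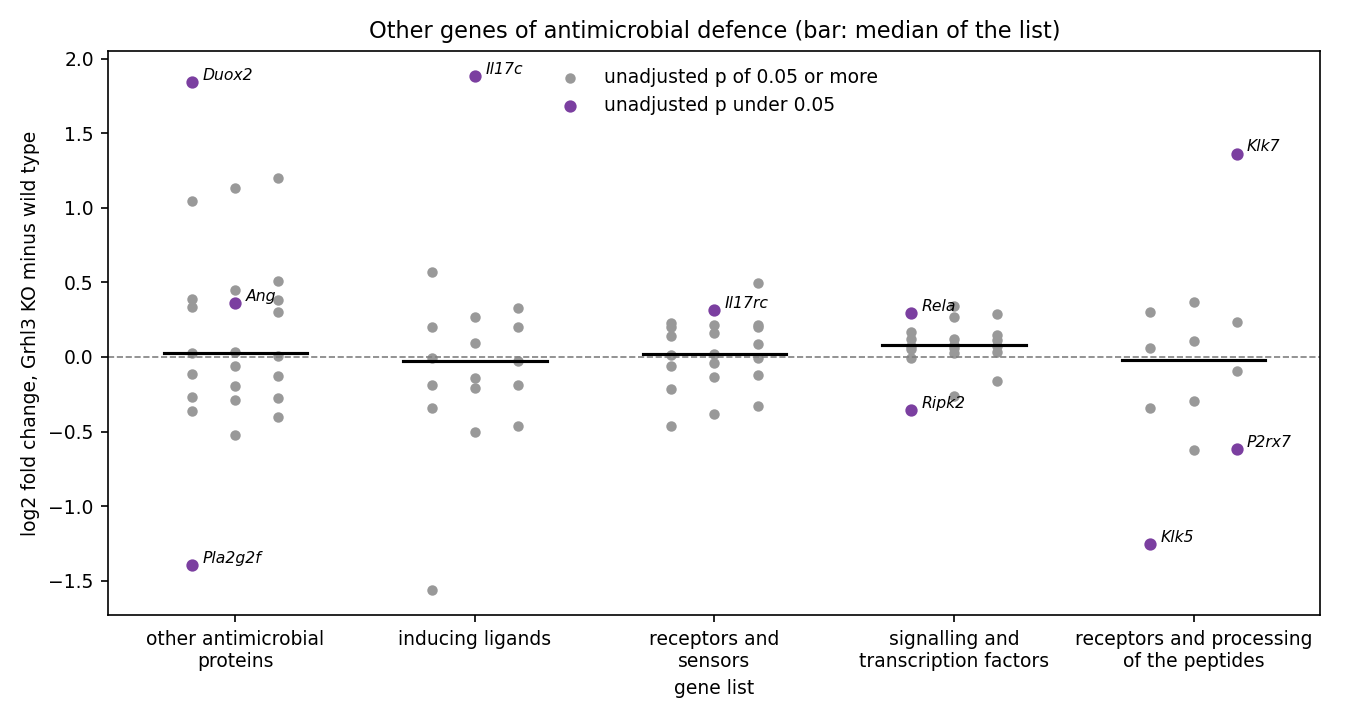
Log2 fold change of Grhl3 KO minus wild type for the tested genes of 5 lists of antimicrobial defence; points are genes, purple marks an unadjusted p under 0.05 and bars are list medians. The medians lie between −0.03 and 0.08, with Duox2 (1.84) and Il17c (1.88) highest.

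Markers of other cells showed 0 called genes in every list. Skeletal muscle markers, from the oesophageal wall, summed to 743 to 5279 CPM in Grhl3 KO mice and 1223 to 2701 CPM in wild type, with 10 of 10 higher and a median log2 fold change of 0.58. Macrophage and monocyte markers summed to 191 to 284 CPM in Grhl3 KO mice and 191 to 262 CPM in wild type, and T cell markers to 18.7 to 41.4 CPM in Grhl3 KO mice and 8.75 to 62.8 CPM in wild type. Salivary and mucous gland markers, from glands that secrete SLPI and lysozyme, stayed at 2.85 to 6.38 CPM in Grhl3 KO mice and 1.65 to 5.12 CPM in wild type in sum, with Bpifa2, Smr3a, Dcpp1 and Prol1 at 0 in all libraries. Airway markers summed to at most 0.597 CPM in Grhl3 KO mice and 0.519 CPM in wild type. Of the squamous markers 4 were higher and 11 lower (median −0.18), with unadjusted p under 0.05 for the envelope genes Ivl (log2 fold change −1.90) and Lor (−1.21), at edgeR adjusted p of 0.504 and 0.697. The part of muscle and of squamous maturity in the members' differences was not tested beyond the covariate values given.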

How the data were processed

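RNA of oesophageal tissue from 5 Grhl3 KO and 5 wild-type mice was sequenced; per the labels' protocols, libraries were stranded poly(A) libraries. The authors deposited whole-number counts per protein-coding gene, which per the submitters' processing notes come from featureCounts (version not given) on GRCm38. No source used here gives the aligner, the annotation release or the treatment of multi-mapping reads. By its name, the table was counted as reverse-stranded. Its 10 columns were joined to samples by sample number, and it holds 0 other columns of per-sample values.

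Genes were filtered with filterByExpr (minimum count 10, minimum total 15), scaled by TMM and tested with edgeR 4.0.16 in R 4.3.3 by the quasi-likelihood F-test with robust dispersions, adjusted by Benjamini-Hochberg over all genes tested (threshold 0.05). Log2 CPM carries a prior count of 2. Exon lengths come from GENCODE vM21. Near-identical transcripts were sought with blastn 2.17.0. Correlations used permutation tests with 100000 resamples, two-sided, and exact two-sided ones where fewer than 10 libraries entered. The tests were tried on simulated data. Alternatives used DESeq2 1.42.0, limma 3.58.1, other scalings and filters, covariates and left-out libraries.

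The members and lists were chosen with earlier results of these data known. Genes beside the members were named by a rule: any list gene past the threshold, the 3 of smallest p and the 2 of highest level per length in each list, and the 3 genes most like each member. Some that it takes are given only in the counts of their list. Csf3r, Retnlg, Cxcr2, Stfa2l1, Trem1, Pglyrp2, Slc22a17, Eif2s3y, Grhl3, the neutrophil granule genes and the genes of the closing section were named outside it. Cebpd, Trdc, Pla2g2a and Intl1 were not analysed here. The IL-36 genes are in the table as Il1f6, Il1f8 and Il1f9, and Adgre1 as Emr1.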

Additional observations from a re-analysis of the deposited data

Results flagged for a closer look

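In 4 of 116 groups of 5 libraries looked at (58 genes in each genotype), the highest or lowest library stood far from the rest on the log2 CPM scale; chance flags about 5% of groups, or 5.8 here. Among the members this was Pglyrp1 in wild-type library 1561, at 17.5 CPM beside 48.7 to 71.4 CPM in the other wild-type libraries. Without that library the Pglyrp1 log2 fold change was 0.70. Beside the members, Lor stood at 614 CPM in Grhl3 KO library 1043 (188 to 261 CPM in the others), C1qb, a macrophage complement gene, at 25 CPM in wild-type library 1028 (17.2 to 18.9 CPM in the others) and Rela at 96.0 CPM in Grhl3 KO library 1027 (87.2 to 89.4 CPM in the others).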

How the results depend on the processing

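Across 24 alternatives, Defb1, Defb4, Slpi, Lcn2, Pglyrp1, Pglyrp3 and Pglyrp4 kept the direction of their log2 fold change, and the number of members called was 0 except for 1 (Pglyrp1) with the squamous marker covariate. Defb3 changed sign in 10: 0.03 with library totals only, 0.58 with limma voom, 0.69 with quality weights, 0.42 without wild-type libraries 1528 and 1555, 0.05 with the neutrophil covariate, 1.17 with the squamous covariate, and from −0.31 to 0.53 with 1 library left out (0.07 without Grhl3 KO 1026, 0.01 without Grhl3 KO 1035, 0.26 without wild type 1028). Defb14 turned to 0.13 with the number series as a batch term and within that series. Genes called over the whole table numbered 11, against 7 with no filter, 119 in DESeq2, 1 in limma voom with and without quality weights, 1 without wild-type libraries 1528 and 1555, 1 with the number series as a term or alone, 2 with the neutrophil covariate, 23 with the squamous covariate and 1 to 16 with 1 library left out. Called list genes were 0, and 1 in DESeq2. Of the correlations, Defb4 with the neutrophil sum fell to −0.03 without the 2 farthest libraries, and within the number series Pglyrp4 gave −0.17 with the neutrophil and −0.31 with the squamous sum and Lcn2 −0.19 with the squamous sum. The causes were not tested. The number series of the other 3 wild-type libraries holds no Grhl3 KO library. No paired analysis was possible because the groups share no replicate number. Wild-type library 1561, with its intermediate Eif2s3y level, stayed in the alternative without wild-type libraries 1528 and 1555.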

Other observations

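Several other antimicrobial genes were not detected: Defb7, Defb8, Reg3b, Reg3g, Bpi, Leap2 and Retnlb were at 0 counts in all 10 libraries. Protease inhibitors and chemoattractants of squamous epithelium were present, and none of those given here passed the threshold. Spink5, encoding the inhibitor LEKTI, averaged 2118 ± 459 CPM in Grhl3 KO mice and 1490 ± 523 CPM in wild-type mice (SD, n = 5 each; log2 fold change 0.51, edgeR adjusted p = 0.711). Wfdc12, a relative of Slpi, averaged 179 ± 63.8 CPM in Grhl3 KO mice and 86.8 ± 92.6 CPM in wild type (log2 fold change 1.05, edgeR adjusted p = 0.806). Of the other tested Wfdc genes listed, Wfdc5 and Wfdc2 had log2 fold changes of −0.29 and −0.28 (edgeR adjusted p = 0.923 and 0.887). Wfdc18 had one of 0.45 (edgeR adjusted p = 0.958). Ccl20, encoding a chemokine that shares the receptor CCR6 with beta-defensins, averaged 8.76 ± 8.45 CPM in Grhl3 KO mice and 3.78 ± 1.98 CPM in wild type (log2 fold change 1.20, edgeR adjusted p = 0.766). Il22, which was too low to be tested, lay between 0 and 0.118 CPM in Grhl3 KO mice and between 0.0941 and 2.96 CPM in wild type. Lyz2, the lysozyme gene of macrophages, averaged 91.5 ± 17.2 CPM in Grhl3 KO mice and 91.1 ± 8.78 CPM in wild type.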
